A study of Mus musculus with 6 samples.

Results

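The receptors for prolactin, growth hormone, IGF-1 and insulin, with the adaptors, STAT5 proteins and feedback inhibitors next to them, were examined in MA-10 cells after an siRNA against COUP-TFII. MA-10 cells come from a Leydig cell tumour of the mouse and secrete steroids, and COUP-TFII, the product of Nr2f2, is an orphan nuclear receptor. The 10 genes were Prlr, Ghr, Igf1r, Insr, Irs1, Irs2, Stat5a, Stat5b, Socs2 and Cish. They were found by gene symbol in the deposited annotation on 13 of 26836 probe sets with a symbol, or 10 of 24032 genes, and no other symbol shares these probe sets. Expression was measured on 6 Affymetrix arrays, 3 from cultures given a control siRNA and 3 from cultures given an siRNA against COUP-TFII. All cultures were the same line, grown in medium with horse serum and transfected for 48 h, and the labels call the 3 arrays of a group biological replicates. Values are the authors' normalized log2 expression. A change is the mean of COUP-TFII siRNA arrays minus the mean of control arrays on that scale, with the moderated standard error (SE) of limma. A probe set was called where its p, adjusted by Benjamini-Hochberg across these 26836 probe sets, was under 0.05.

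Prolactin and growth hormone receptors belong to the class of cytokine receptors that have no kinase of their own. They bind the kinase JAK2, which phosphorylates STAT5A and STAT5B, and these enter the nucleus and switch on target genes, among them Cish and Socs2, whose products damp the same receptors. Insulin and IGF-1 receptors are tyrosine kinases that act through the adaptors IRS-1 and IRS-2 on the PI3K-AKT and Ras-MAPK branches. In Leydig cells, prolactin is known to modulate the number of LH receptors and steroid output, and insulin-like signals support the maturation and steroid capacity of the cells.

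The targeted transcript, Nr2f2, read 8.98, 8.97 and 9.19 in control arrays and 8.25, 8.42 and 8.56 in COUP-TFII siRNA arrays, or 64.4% of control (limma adjusted p = 0.00802). The fall of the transcript, as read by this probe set, was thus partial. These arrays do not measure COUP-TFII protein. Over all probe sets 783 were called lower and 426 higher, or 2.92% and 1.59% (4.51% in either direction). After centring each array on its median these counts were 1184 and 308. All 8 Leydig cell markers examined were brighter than the median probe set, and 6 of them were called lower, with 0 higher. The others were Cyp17a1 and Nr5a1. Cyp17a1 differed by 0.34 (SE 0.13, limma adjusted p = 0.201) with overlapping groups, and Nr5a1 by -0.02 (SE 0.05). The summed linear signal of the 8 markers was 26109 to 27081 in control arrays and 20889 to 21400 after COUP-TFII siRNA. Of 24 markers of Sertoli, germ, macrophage, endothelial and peritubular cells, 1 was called, the germ cell gene Ddx4, at -0.32 (SE 0.06). The summed linear signal of these 24 ranged from 6373 to 6859 in control arrays and from 6093 to 6416 in COUP-TFII siRNA arrays. In some of these lists, such as the endothelial one, a single bright probe set carries most of the sum. Changes below 0 were found for 1 of 4 Sertoli cell markers and 4 of 5 peritubular markers. They were found for 2 of 5 markers each of germ cells, macrophages and endothelial cells. In the endothelial list the bright gene was Cdh5, which differed by -0.15 (SE 0.06, limma adjusted p = 0.19). Pecam1 differed by -0.05, while Kdr, Tek and Emcn differed by 0.11, 0.06 and 0.02. In the germ cell list Tnp1 differed by -0.12, and Dazl, Sycp3 and Prm1 by 0.15, 0.08 and 0.01, beside the fall of Ddx4. Among Sertoli cell markers Sox9, the brightest, differed by 0.22 (SE 0.08) with overlapping groups. Fshr and Wt1 differed by 0.12 and 0.11, and Amh by -0.13 (SE 0.06). The part of these differences in the results below was not tested. All cultures were of the same line, MA-10. In RNA of whole cultures, a change in some of the cells and a change in all of them cannot be told apart.

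Of the 13 probe sets, 5 were called lower and 0 higher, beside the 2.92% and 1.59% called in each direction over all probe sets. They belong to 4 genes, Prlr with both of its probe sets, Igf1r, Irs1 and Stat5a. The control and COUP-TFII siRNA arrays did not overlap for 7 probe sets that were lower and 2 that were higher. Over all probe sets 12.2% were lower without overlap and 13% were higher without overlap. The median change of the 13 was -0.17, and that of all probe sets tested was 0.01. All 5 calls fell among the 8 probe sets that lie in the brightest quartile of the array, where 5.19% of all probe sets were called lower and 3.2% higher. The next quartile, with 1 member probe set (Ghr), had 5.54% lower and 2.36% higher. The 4 probe sets dimmer than the median, of Irs2, Socs2, Cish and a second Irs1 probe set, had 0 calls. In the 2 dimmer quartiles 0.209% and 0.73% of all probe sets were called lower, and 0.283% and 0.507% higher.

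**Figure D1:**
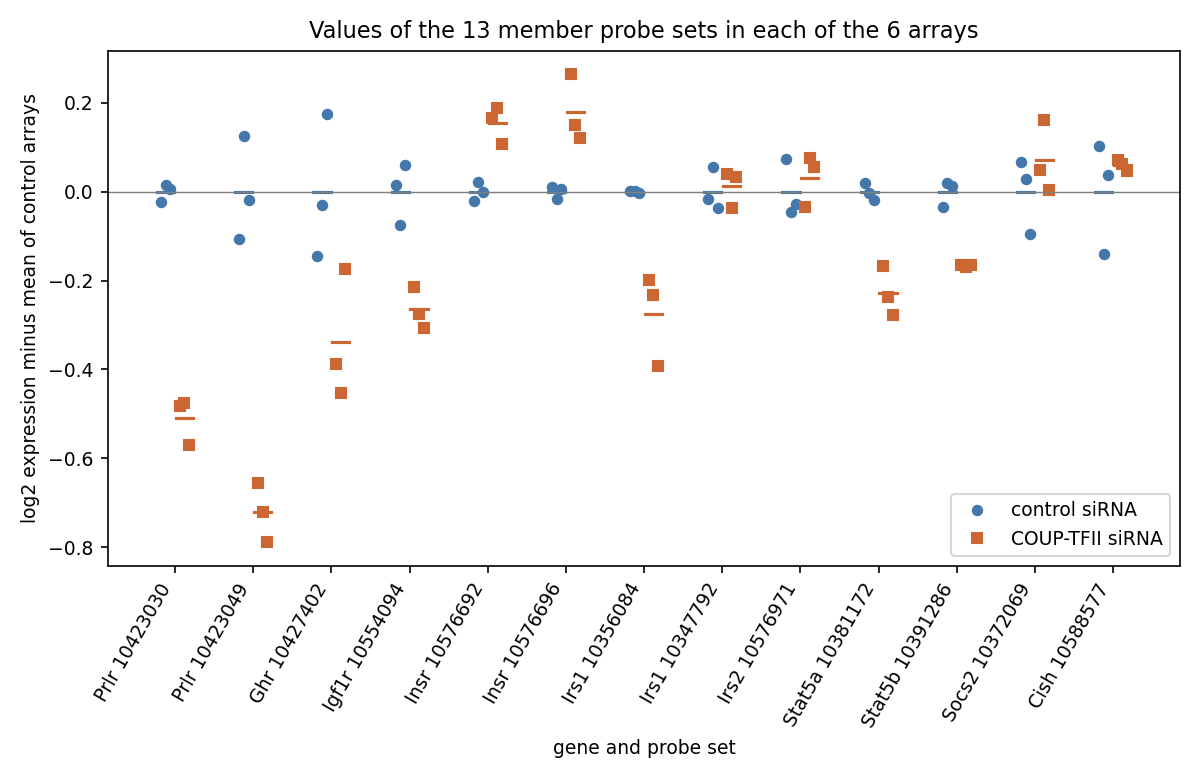
Log2 expression of each member probe set in each of the 6 arrays, minus the mean of the 3 control arrays of that probe set. Circles are control siRNA arrays, squares are COUP-TFII siRNA arrays and short bars are group means. Both Prlr probe sets fell in all 3 COUP-TFII siRNA arrays, the Insr probe sets lie above their controls, and Irs2, Socs2 and Cish overlap theirs.

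Prlr, the prolactin receptor, fell most among the members, on both of its probe sets. Probe set 10423030 read 10.78, 10.82 and 10.81 in control arrays and 10.32, 10.33 and 10.24 in COUP-TFII siRNA arrays. Probe set 10423049 read 10.62, 10.85 and 10.71 in control arrays and 10.07, 10.01 and 9.94 in COUP-TFII siRNA arrays. On each probe set all control arrays were above all COUP-TFII siRNA arrays. The first fell by 0.51 (SE 0.05, n = 3 per group, limma adjusted p = 0.00169), to 70.3% of control with a 95% interval of 65.2% to 75.8%. The second fell by 0.72 (SE 0.07, limma adjusted p = 0.00169), to 60.7% of control with an interval of 54.5% to 67.5%. Both stayed below the threshold when any of the 6 arrays was left out, with limma adjusted p between 0.0068 and 0.0137 for the first and between 0.004 and 0.016 for the second. The authors' deposited table gives ratios of 0.698 and 0.603 for these probe sets. They are the only member probe sets among the 334 on the authors' deposited list of changed transcripts.

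The Prlr gene gives rise to a long receptor form and to shorter forms that lack most of the cytoplasmic tail and with it the STAT5 docking part. Probe set 10423030 is annotated with 43 transcript records, 3 of them curated RefSeq transcripts, and 10423049 with 8, of which 1 is curated and is among those 3. Records of the same transcript were not merged, so these are not counts of receptor forms. The fall of 10423049 exceeded that of 10423030 by 0.21 on the log2 scale. The within-array difference of the pair was -0.08 ± 0.10 in control arrays and -0.29 ± 0.04 in COUP-TFII siRNA arrays (SD, n = 3). The groups lay apart in this difference, with a 2-sided exact permutation p of 0.1, the smallest that 3 arrays against 3 can give, or 0.2 adjusted over the 6 pairs of probe sets compared. Prlr and Ghr both lie in band A1 of chromosome 15. In RefSeq gene order (GRCm38.p6, used for order only), the protein-coding neighbours of Prlr are Il7r and Spef2 on one side and Agxt2 and Dnajc21 on the other. Il7r changed by -0.11 (SE 0.05) and Spef2 by -0.05 (SE 0.05), and neither was called. Agxt2, an aminotransferase of mitochondria, fell by 0.27 (SE 0.06, limma adjusted p = 0.0346), and Dnajc21 differed by -0.24 (SE 0.07) without a call. Neighbours of other members went both ways. Rhbdd1, next to Irs1, rose by 0.25 (SE 0.05, limma adjusted p = 0.0268). Mapkapk3, next to the uncalled Cish, fell by 0.31 (SE 0.05, limma adjusted p = 0.0129). AW549877, near Ghr, differed by 0.22 (SE 0.06) without a call. Whether neighbours change together was not tested.

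Promoters of the members, taken from RefSeq (GRCm38.p6) as 250 bases before to 50 after a transcript start, were searched for 2 motifs on both strands. AGGTCA is the hexamer that COUP-TFII and many other nuclear receptors bind, usually as a repeat, and SF-1 binds an extended form of it. TTCNNNGAA is the palindrome bound by STAT5 and other STATs. Over all 32851 promoters listed there, 16.3% hold the hexamer and 8.3% the palindrome. That collection holds 13 promoters of 8 members, and none for Insr and Socs2. The hexamer was found in 4 of the 13, of Igf1r, Stat5a and Stat5b, and the palindrome in 2, of Prlr and Cish. None of the 3 Prlr promoters in the table holds the hexamer in this window. One of them holds a single palindrome, shown here in capitals because Prlr is the member with the largest change (chr15:10223776-10223825, plus strand).
Prlr: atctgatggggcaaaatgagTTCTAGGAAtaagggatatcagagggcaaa

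Ghr, the growth hormone receptor, lay lower in the COUP-TFII siRNA arrays but was not called. It read 9.38, 9.49 and 9.70 in control arrays and 9.13, 9.07 and 9.35 in COUP-TFII siRNA arrays. Every control array was above every COUP-TFII siRNA array, but control replicate 1 lay just above COUP-TFII siRNA replicate 3. The change was -0.34 (SE 0.10, limma adjusted p = 0.0895), or 79.1% of control with a 95% interval of 68.0% to 92.0%. Replicates spread more than for any other member, with an SD of 0.16 in control arrays and 0.15 after COUP-TFII siRNA. With array weights the limma adjusted p was 0.0414, and with an intensity-dependent prior 0.0377. The change of Prlr minus that of Ghr was -0.17, and the exact permutation p of this difference was 0.4.

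Igf1r, the receptor kinase for IGF-1 and IGF-2, fell, while Insr, its closest relative, lay higher. Igf1r read 10.06, 9.97 and 10.10 in control arrays and 9.83, 9.77 and 9.74 in COUP-TFII siRNA arrays, with every control above them. It fell by 0.26 (SE 0.05, limma adjusted p = 0.0307), to 83.2% of control with an interval of 76.5% to 90.6%. Its adjusted p was 0.0757 without control replicate 1, 0.104 without control replicate 3, and 0.0721, 0.114 and 0.0993 without COUP-TFII siRNA replicates 1, 2 and 3. Without control replicate 2 the call was kept, with limma adjusted p = 0.0345. Igf1r is annotated to chromosome 7 band D1, which is also the band of Nr2f2. Its protein-coding neighbours Synm and Pgpep1l differed by 0.01 (SE 0.08) and -0.02 (SE 0.05), and neither was called. The Igf1r promoter holds the hexamer once, on the minus strand and starting 86 bases before the transcript start, where it reads as the capitals in this stretch (chr7:67952157-67952256, plus strand).
Igf1r: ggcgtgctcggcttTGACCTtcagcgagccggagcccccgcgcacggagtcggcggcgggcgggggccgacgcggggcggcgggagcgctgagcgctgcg

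Both Insr probe sets, for the insulin receptor, moved the other way without a call. Probe set 10576692 read 10.97, 11.01 and 10.99 in control arrays and 11.16, 11.18 and 11.10 in COUP-TFII siRNA arrays. Probe set 10576696 read 9.90, 9.87 and 9.90 in control arrays and 10.16, 10.04 and 10.01 in COUP-TFII siRNA arrays. On both probe sets every COUP-TFII siRNA array was above every control array. The changes were 0.15 (SE 0.05, limma adjusted p = 0.106) and 0.18 (SE 0.05, limma adjusted p = 0.0977), or 111% and 113% of control. Their 95% intervals ran from 0.05 to 0.26 and from 0.06 to 0.30. Among probe sets brighter than the median both were called (limma adjusted p = 0.033 and 0.0335), and also with an intensity-dependent prior (0.0296 and 0.0448). The within-array difference of Igf1r and Insr was -0.95 ± 0.09 in control arrays and -1.37 ± 0.04 after COUP-TFII siRNA (SD, n = 3), a shift of -0.42. The groups lay apart in this difference, with an exact permutation p of 0.1 and 0.2 adjusted over the 6 pairs.

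**Figure D2:**
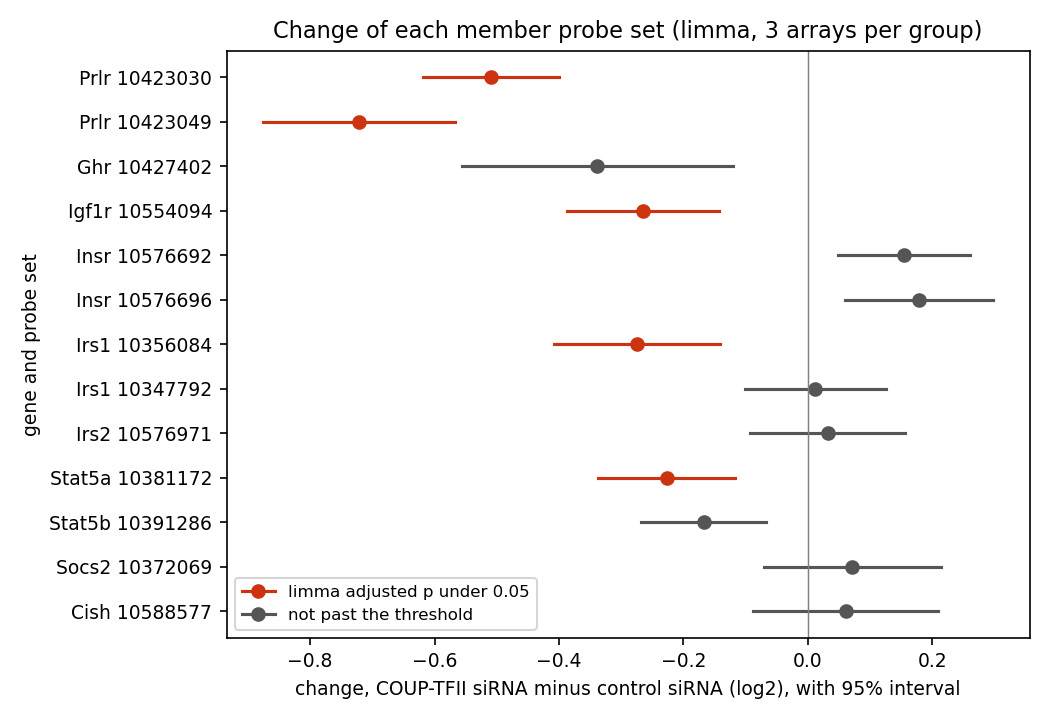
Log2 change of each member probe set (COUP-TFII siRNA minus control), with its 95% interval from limma (3 arrays per group). Red marks the 5 probe sets with an adjusted p under 0.05, all of them lower, with Prlr lowest at -0.72 and -0.51.

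Irs1, the adaptor that insulin and IGF-1 receptors phosphorylate, fell on its main probe set. Probe set 10356084 read 9.91, 9.91 and 9.91 in control arrays and 9.71, 9.68 and 9.52 in COUP-TFII siRNA arrays. The controls were nearly identical, with an SD of 0.0021, and the COUP-TFII siRNA arrays spread 0.10 (SD). It fell by 0.27 (SE 0.06, limma adjusted p = 0.0376), to 82.7% of control with an interval of 75.3% to 90.7%. No fit with an array left out kept this call. Its adjusted p was 0.0822, 0.0856 and 0.105 without control replicates 1, 2 and 3, and 0.0657, 0.1 and 0.0837 without COUP-TFII siRNA replicates 1, 2 and 3. The second Irs1 probe set, 10347792, is annotated with a single transcript record and was dim, at percentile 24.0 of mean expression. It read 6.04, 6.11 and 6.02 in control arrays and 6.10, 6.02 and 6.09 after COUP-TFII siRNA, a difference of 0.01 (SE 0.05).

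Irs2, the other main adaptor of the insulin receptor, overlapped between the groups. It read 7.24, 7.12 and 7.14 in control arrays and 7.13, 7.24 and 7.22 in COUP-TFII siRNA arrays, at percentile 44.3 of mean expression. The difference was 0.03 (SE 0.05, limma adjusted p = 0.811), with an interval of -0.09 to 0.16. The change of Irs1 minus that of Irs2 was -0.31, without overlap between the groups (exact permutation p = 0.1, and 0.2 adjusted over the 6 pairs).

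Stat5a fell and Stat5b lay lower without a call. Stat5a read 10.87, 10.84 and 10.83 in control arrays and 10.68, 10.61 and 10.57 in COUP-TFII siRNA arrays. Stat5b read 10.40, 10.46 and 10.45 in control arrays and 10.27, 10.27 and 10.27 in COUP-TFII siRNA arrays. Neither gene overlapped between the groups. Stat5a fell by 0.23 (SE 0.05, limma adjusted p = 0.0369), to 85.4% of control with an interval of 79.1% to 92.2%. Stat5b changed by -0.17 (SE 0.04, limma adjusted p = 0.0725), or 89.1% of control with an interval of 83.1% to 95.5%. After centring each array on its median, Stat5b was called (limma adjusted p = 0.0398). The call of Stat5a was lost whichever array was left out, with 0.088, 0.0792 and 0.0949 without control replicates 1, 2 and 3, and 0.0702, 0.129 and 0.112 without COUP-TFII siRNA replicates 1, 2 and 3. The change of Stat5a minus that of Stat5b was -0.06, and the groups overlapped in this difference (exact permutation p = 0.3).

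The 2 genes are neighbours on chromosome 11, followed by Stat3, the STAT of the IL-6 family of cytokines. Stat3 differed by -0.16 (SE 0.05, limma adjusted p = 0.0928), also without overlap, and Ghdc on the other side of Stat5b by -0.21 (SE 0.05, limma adjusted p = 0.0601). The hexamer occurs once in each of the 2 Stat5a promoters and in 1 of the 2 Stat5b promoters in the table. It starts 46 and 44 bases before the Stat5a starts and 35 before the Stat5b start, and capitals mark it in the stretches printed here, which allow the paralogs to be compared. The last pair, around the second Stat5a start and the Stat5b start, is identical at 44 of 51 bases when laid side by side at the hexamer without gaps. In order they lie at chr11:100859596-100859655 (plus strand), chr11:100860424-100860483 (plus strand) and chr11:100822571-100822630 (minus strand).
Stat5a first start: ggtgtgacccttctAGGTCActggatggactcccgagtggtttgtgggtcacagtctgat
Stat5a second start: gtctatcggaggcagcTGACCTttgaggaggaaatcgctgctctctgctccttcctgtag
Stat5b: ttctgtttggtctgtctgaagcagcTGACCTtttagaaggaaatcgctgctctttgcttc

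Socs2 and Cish, STAT5 target genes whose products bind phosphorylated cytokine receptors and limit their signal, overlapped between the groups. Socs2 read 6.59, 6.55 and 6.42 in control arrays and 6.57, 6.68 and 6.52 in COUP-TFII siRNA arrays. Cish read 7.21, 6.96 and 7.14 in control arrays and 7.18, 7.17 and 7.15 in COUP-TFII siRNA arrays. Both probe sets were dim, at percentiles 32.9 and 43.6 of mean expression. Socs2 differed by 0.07 (SE 0.06, limma adjusted p = 0.594), with an interval of -0.07 to 0.21. Cish differed by 0.06 (SE 0.07, limma adjusted p = 0.678), with an interval of -0.09 to 0.21. Their changes differed from each other by 0.01 (exact permutation p = 0.9). The Cish promoter holds the palindrome at 2 places, starting at bases 1 and 12 of the transcript, in capitals here as the STAT motif next to the gene that STAT5 is known for (chr9:107296654-107296683, plus strand).
Cish: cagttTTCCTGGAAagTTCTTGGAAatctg

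**Figure D3:**
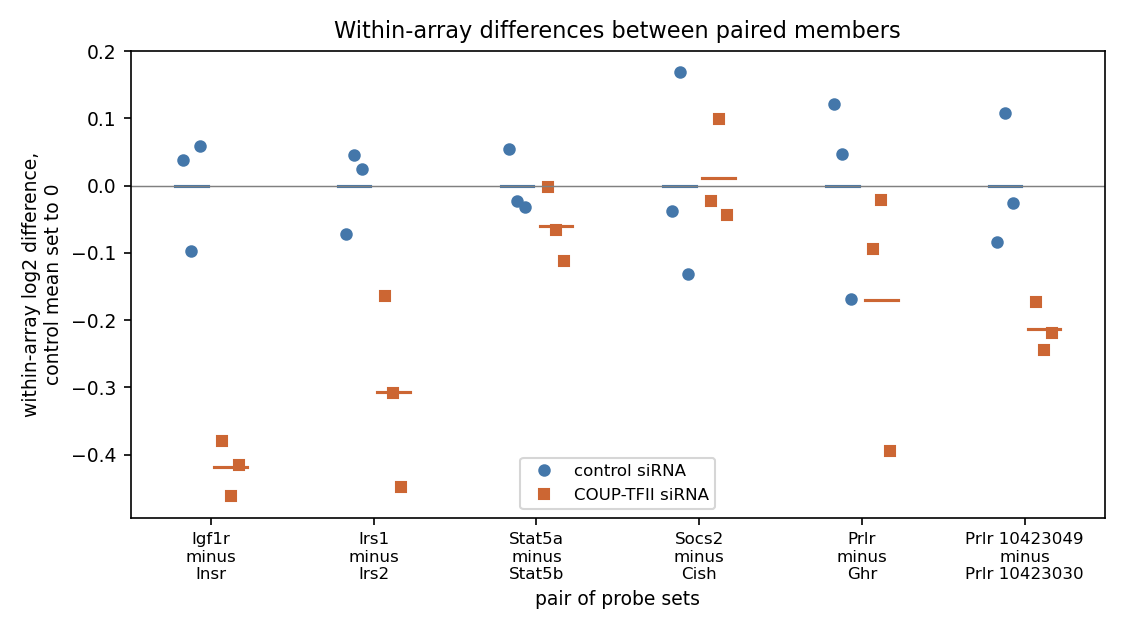
Within-array log2 difference between the brightest probe sets of 5 pairs of members and between the 2 Prlr probe sets, with the control mean of each pair set to 0. Circles are control arrays, squares COUP-TFII siRNA arrays and bars group means. The groups lie apart for Igf1r and Insr, Irs1 and Irs2, and the 2 Prlr probe sets, and overlap for the other pairs.

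The genes whose profile over the 6 arrays was most like that of Prlr were Slc11a1, Tns2 and Cdon. Likeness was the root mean square difference of log2 values, each gene centred on its own mean, over 24031 other genes by their brightest probe set. It was 0.0297 for Slc11a1, a metal ion transporter of phagosomes, 0.03 for Tns2, a tensin of focal adhesions, and 0.032 for Cdon, a cell surface co-receptor of hedgehog proteins. Their changes were -0.47 (SE 0.05), -0.48 (SE 0.05) and -0.52 (SE 0.05), beside -0.51 for Prlr. The measure favours genes with a change of similar size and brings in no sample beyond the 6 arrays.

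Around the members, 141 of 143 other genes of these pathways were measured, and 7 were called lower and 6 higher, with a median change of 0.03. Over 24032 genes, by their brightest probe set, 3.03% were called lower and 1.6% higher. Among 14 ligands and IGF binding proteins, 2 fell and 1 rose. Igfbp6, which binds IGF-2 by preference, read 12.13, 12.22 and 12.19 in control arrays and 11.65, 11.62 and 11.63 in COUP-TFII siRNA arrays. It fell by 0.54 (SE 0.05, limma adjusted p = 0.00132), to 68.5% of control. Prl, the prolactin gene itself, read 8.42, 8.62 and 8.47 in control arrays and 8.02, 7.83 and 8.11 in COUP-TFII siRNA arrays. It fell by 0.52 (SE 0.08, limma adjusted p = 0.0133), a call that was lost when all 35556 probe sets were fitted (0.0563). Whether this probe set also reads related genes of the prolactin family was not tested. Ins1, an insulin gene, rose by 0.27 (SE 0.06, limma adjusted p = 0.0468) on a dim probe set (percentile 39.3). Its adjusted p was 0.0569 after median centring, 0.0553 after quantile normalization, and 0.1 to 0.154 without any one of control replicates 2 and 3 and the 3 COUP-TFII siRNA replicates. Igf2 differed by 0.20 (SE 0.05, limma adjusted p = 0.0525).

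Among 20 other receptors of the same families 2 fell and 1 rose. Osmr, the receptor chain for oncostatin M, fell by 0.39 (SE 0.06, limma adjusted p = 0.00916), from 8.01 ± 0.09 to 7.62 ± 0.04 (SD, n = 3). Il4ra, the alpha chain of the IL-4 receptor, fell by 0.36 (SE 0.08, limma adjusted p = 0.0376). Cntfr, the ciliary neurotrophic factor receptor, rose by 0.27 (SE 0.06, limma adjusted p = 0.0341). Il6st, which encodes the shared chain gp130 that pairs with several of these receptors, differed by 0.18 (SE 0.05, limma adjusted p = 0.0619). The fall of Osmr kept its call in each of the 6 fits with an array left out, up to a limma adjusted p of 0.0462. Neither Il4ra nor Cntfr kept it in any of these fits, with limma adjusted p between 0.0542 and 0.0952 for Il4ra and between 0.0538 and 0.118 for Cntfr.

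Of 23 Janus kinases, other STATs, other SOCS genes and phosphatases, 0 fell and 0 rose by limma, and their changes lay between -0.18 and 0.14. Jak1, a kinase of many cytokine receptors, differed by -0.18 (SE 0.05, limma adjusted p = 0.0756), and Stat3 is given above. Jak2, the kinase bound to Prlr and Ghr and named here for that role, differed by -0.06 (SE 0.06, limma adjusted p = 0.686). In this list 3 of 23 genes were lower and 4 higher without overlap between the groups, near the 12.2% and 13% over all probe sets. Over all lists 20 of 141 genes were lower and 28 higher without overlap. Lower and higher counts were 2 and 4 of 14 ligands and binding proteins, and 4 and 4 of 20 receptors. They were 2 and 6 of 26 adaptor and Ras-MAPK genes, 3 and 8 of 34 PI3K branch genes, and 6 and 2 of 25 STAT5 and FOXO targets. These counts were not tested.

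The adaptors and the Ras-MAPK branch held 3 rises and 0 falls among 26 genes. Crk, an SH2 and SH3 adaptor, read 10.54, 10.55 and 10.58 in control arrays and 10.97, 10.95 and 11.01 in COUP-TFII siRNA arrays. It rose by 0.42 (SE 0.05, limma adjusted p = 0.0032), to 134% of control. The call of Crk held under all 14 alternatives tried. Braf, a kinase upstream of MEK, rose by 0.28 (SE 0.05, limma adjusted p = 0.0172), and missed the threshold without control replicate 1 (0.0509) and without COUP-TFII siRNA replicates 1, 2 and 3 (0.066, 0.0675 and 0.0656). Shc1, an adaptor of receptor tyrosine kinases, differed by 0.27 (SE 0.07, limma adjusted p = 0.072). The median of the list was 0.00.

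In the PI3K, AKT, mTOR and FOXO branch 2 of 34 genes fell and 1 rose, with a median of 0.02. Phlpp2, a phosphatase that removes an activating phosphate from AKT, read 9.61, 9.63 and 9.61 in control arrays and 9.33, 9.30 and 9.20 in COUP-TFII siRNA arrays. It fell by 0.34 (SE 0.05, limma adjusted p = 0.00989), and the call held under all 14 alternatives. Foxo1, the transcription factor that AKT keeps out of the nucleus, rose by 0.27 (SE 0.05, limma adjusted p = 0.025). Without any one of control replicates 1 and 3 and the 3 COUP-TFII siRNA replicates its adjusted p lay between 0.0663 and 0.0923. Gsk3a, a kinase that AKT inhibits, differed by -0.17 (SE 0.05, limma adjusted p = 0.0733).

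Of 25 known STAT5 and FOXO target genes outside the members, 1 fell and 0 rose. Cat, which encodes catalase and is a FOXO target, fell by 0.27 (SE 0.05, limma adjusted p = 0.0201), to 83.1% of control. Its call was lost without control replicate 1 (0.0535), control replicate 3 (0.0715), COUP-TFII siRNA replicate 2 (0.0901) and COUP-TFII siRNA replicate 3 (0.0703). The other genes named from this list did not move one way. Sesn3 differed by -0.36 (SE 0.09, limma adjusted p = 0.0524), Sesn2, also a stress-induced sestrin, by 0.41 (SE 0.10, limma adjusted p = 0.0555) and Txnip, an inhibitor of thioredoxin, by -0.19 (SE 0.05, limma adjusted p = 0.0569). The median of the list was -0.01, beside 0.01 for all genes.

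**Figure D4:**
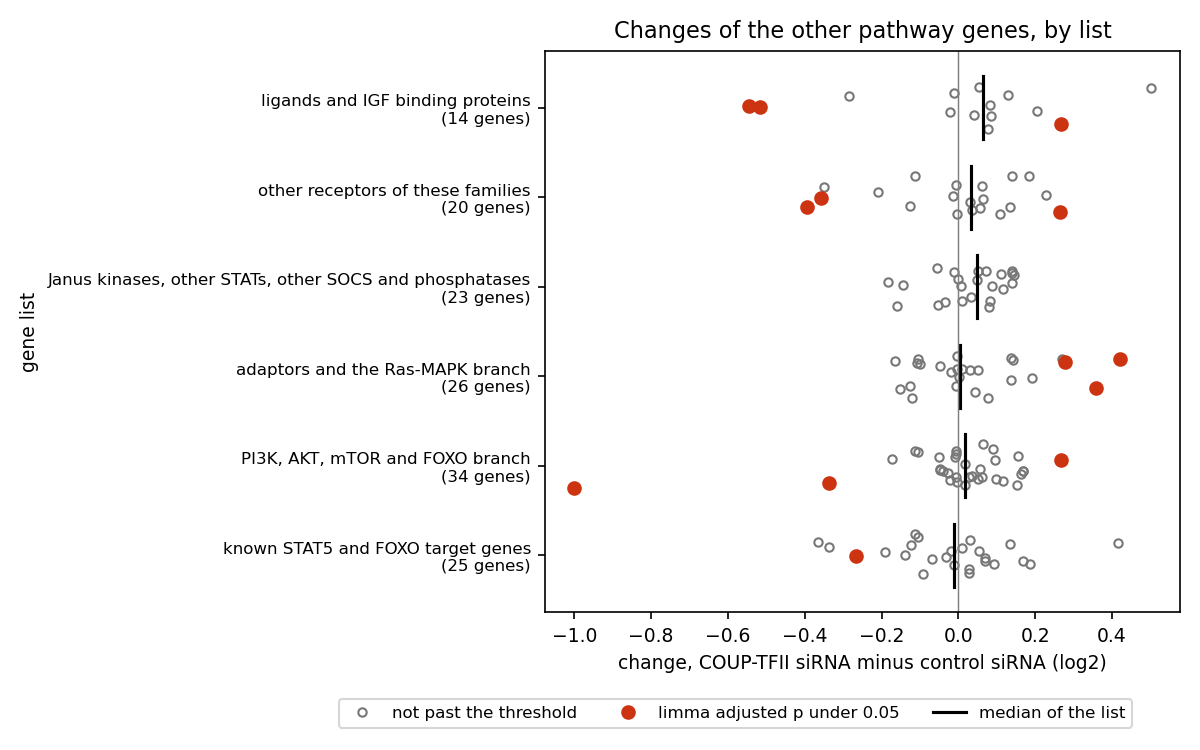
Change of each other pathway gene (COUP-TFII siRNA minus control siRNA, log2), by list, with the brightest probe set for each gene. Filled red points passed a limma adjusted p under 0.05, open points did not, and black lines are list medians, which lie between -0.01 and 0.06. The 3 red points of the Ras-MAPK list all lie to the right of 0.

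The called members differed in how far their calls depended on the setting. Both Prlr probe sets were called under all 14 alternatives, with limma adjusted p up to 0.0195 and 0.02. Igf1r, Irs1 and Stat5a were called under 6 of 8 alternatives that kept all arrays, but in 1, 0 and 0 of the 6 fits with an array left out. Ghr, Stat5b and both Insr probe sets were called under 4, 3, 2 and 2 of the 8, and in 0 of those 6. No member probe set that was called under any setting changed direction.

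**Figure D5:**
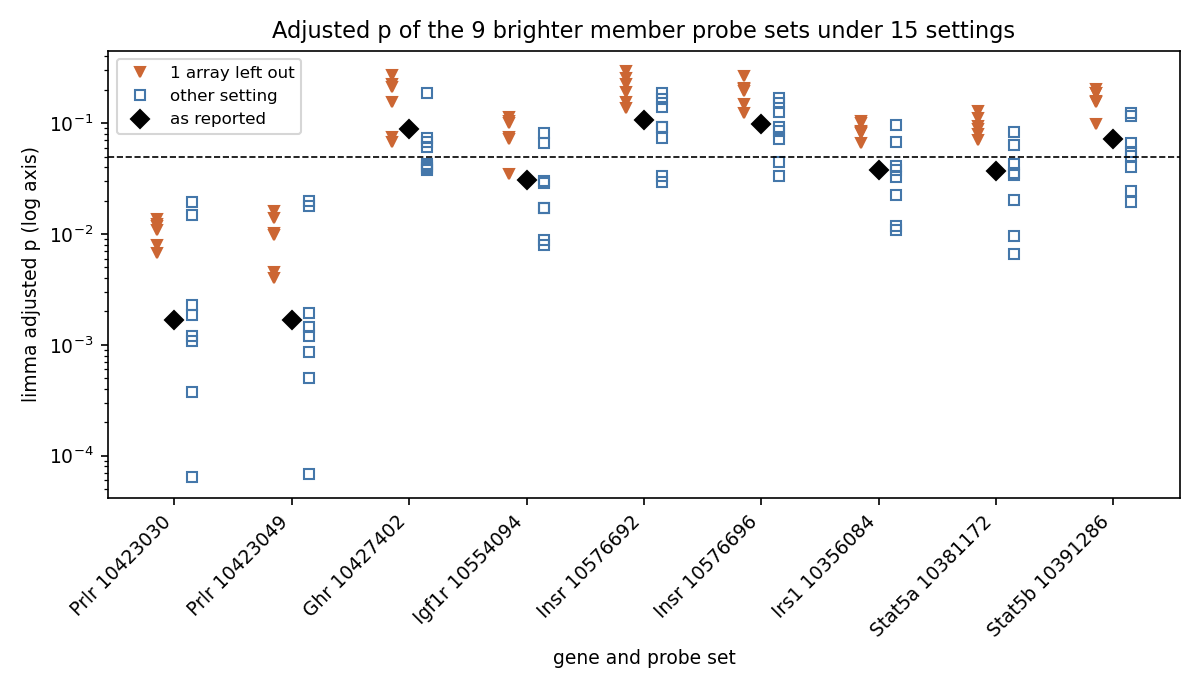
Limma adjusted p (log axis) of the 9 member probe sets brighter than the median, as reported (diamonds), with 1 array left out (triangles) and under the other settings (squares). The dashed line is 0.05. All points of both Prlr probe sets lie below the line, whereas those of Igf1r, Irs1 and Stat5a lie on both sides.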

How the data were processed

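The authors deposited log2 expression values, already normalized and between 3.15 and 14.3, for 35556 probe sets on 6 arrays. Partek 7.0 is named in the submitters' processing notes; for background correction and normalization, the method is "not given in the sources used here". The deposited comparison table gives a linear ratio, a signed fold (a score) and an unadjusted p-value per probe set, copied only where named. Each probe set with a symbol was fitted with limma 3.58.1 (R 4.3.3, lmFit and eBayes) with group as the only term, tested on simulated data. The number of arrays limits the precision. Pairs of probe sets were compared by exact permutation tests of within-array differences (scipy 1.17.1). Members, lists, tests and alternatives were chosen with earlier results of these data known. The text names all members, Nr2f2, up to 4 genes with the smallest p from each of 6 lists (at most 2 where none was called), and the 3 genes most like Prlr. Jak2 and the neighbours were added after their values were seen. A gene outside the members was represented by its brightest probe set with exactly 1 symbol. Some list genes that the rule would name are not reported here, but stay in the counts. Alternatives were 3 other normalizations, all probe sets, brighter probe sets, an intensity trend, array weights, a replicate block, leaving out each array, and for list counts the probe set with the smallest p.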

Additional observations from a re-analysis of the deposited data

How the results depend on the processing

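Against the 5 lower and 0 higher member probe sets reported, fitting all 35556 probe sets gave 2 lower and 0 higher, and leaving out 1 array gave 2 to 3 lower and 0 higher. Restricting the fit to brighter probe sets gave 7 lower and 2 higher, as did an intensity trend in the prior, and median centring and array weights gave 6 lower and 0 higher each. For the pathway lists (7 lower and 6 higher), the lower count was 11 after median centring, 4 with all probe sets, 14 among brighter ones, 13 with a trend and 11 with array weights. It was 5 to 7 with 1 array left out. The higher count was 2, 12 and 12 with all probe sets, brighter ones and a trend, and 2 to 4 with 1 array left out. Over all probe sets with a symbol (783 lower and 426 higher), the counts were 1184 and 308 after median centring, 263 and 109 with all probe sets, 1455 and 920 among brighter ones, 1317 and 815 with a trend, and 210 to 518 and 96 to 240 with 1 array left out. The replicate block gave 3 lower member probe sets, of Prlr and Ghr, a limma adjusted p of 0.056 for Prl, and 484 lower and 227 higher over all probe sets. The labels do not say what a shared replicate number means. The deviations of same-numbered arrays correlated at 0.11, -0.05 and 0.17, and those of differently numbered arrays at -0.22 to 0.13. With 3 arrays per group these correlations are too few to decide whether same-numbered arrays were paired. Nr2f2 was called under all 14 alternatives, and the 6 pair differences moved by less than the spread between replicates under those run for them; only Socs2 minus Cish, near 0, changed sign (-0.05 to 0.10). Depth per array is not measured by these values, and dim probe sets were rarely called.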
